A study of Homo sapiens with 4 samples.

Results

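Intergenic sites far from their assigned transcript start were studied in the list of RNA contacts of P5CS. A site was a member when the list's region column read Intergenic and its distance to the start of the assigned transcript exceeded 10000 bases on either side. The rule also leaves out the mitochondrial genome, the part of chromosome 21 below position 9000000, and repeat loci on chromosomes 19, 17 and 4, and none of the far sites lay in those regions (0 members removed). The rule found 713 members among 17625 listed sites, which is 4.05% of the list, and 27.4% of its 2603 intergenic sites. LACE-seq, which reads the ends of cDNA copied from RNA pulled down with an antibody, was made from NCI-H1299, an established human cell line labelled as lung adenocarcinoma, and the labels name no treatment or genetic change. The 4 libraries were 2 with an antibody against P5CS, the proline synthesis enzyme encoded by ALDH18A1, and 2 with a control IgG. The deposited values are 1 list of positions on build hg38 with no score and no level per library, so depth is unknown, no replicate error can be given, and a member is a listed site rather than a measured excess over IgG.

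Intergenic means outside the transcripts of one annotation, and another annotation may place a gene there. The human genome holds many partial copies of abundant RNAs, such as ribosomal RNA pseudogenes and nuclear copies of mitochondrial genes, which lie apart from the genes they were copied from. It also holds short genes read by RNA polymerase III, among them the tRNA genes, whose control elements lie inside the transcribed part. A read from an abundant RNA can match such copies as well as its own gene, and the sources used here do not say how reads with several matches were placed. Their part in the counts below was not tested.

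The largest group of members lay over a copy of 28S ribosomal RNA on chromosome 20, and its sequence is shown because it is the one place where the reference tables hold the bases under members. The window is RefSeq's start region of the noncoding gene LOC105379481 (build GRCh38.p14, plus strand, chr20:30513805-30514104), which lies inside the 28S pseudogene LOC110467526. Capitals mark the bases under the listed sites at chr20:30513920-30513940 and chr20:30514040-30514100. The first is listed on the plus strand and the second on both strands, so the window accounts for 3 of the 713 members. No strand is given for LOC110467526, so the bases, printed for the plus strand, are not shown to be in the sense of 28S RNA.
LOC105379481 start window: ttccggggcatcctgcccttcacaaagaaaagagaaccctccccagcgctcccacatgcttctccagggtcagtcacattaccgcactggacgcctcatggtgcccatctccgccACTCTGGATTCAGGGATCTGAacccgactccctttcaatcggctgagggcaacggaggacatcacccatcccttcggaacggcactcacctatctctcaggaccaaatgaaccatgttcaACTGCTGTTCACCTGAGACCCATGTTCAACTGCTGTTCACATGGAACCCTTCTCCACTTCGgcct
The second site spans the annotated start of LOC105379481, running from 15 bases before it to 45 bases after it in the sense of the gene. The window holds a direct repeat of 21 bases, CCATGTTCAACTGCTGTTCAC, whose copies begin 28 bases apart, and the listed site covers the second copy whole and the end of the first. A direct repeat at least that long occurred in 900 of 35116 RefSeq start windows, or 2.56%. The GC content of the window was 55.7%, against a median of 58.7% over all windows. No other start window shared a run of 31 bases with it on either strand. The rest of the genome was not searched, so this does not show that the sequence is unique.

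Ribosomal RNA pseudogenes lay under the 3 loci with most members. A locus here is a run of members less than 10000 bases apart on either strand, and the 713 members fell into 426 loci. The 3 largest held 82 members, 11.5% of the set. On chromosome 20, between positions 30501840 and 30516620, 33 members were listed, 21 on the plus strand and 12 on the minus strand. Of these, 21 lay in LOC110467526 (chr20:30511936-30514514), which RefSeq also names RNA28SP, and they covered 18.4% of its 2579 bases. A second group of 10 in the same locus, from position 30501840 to 30504960, was assigned by the list to LOC110467523, named there as a 5.8S ribosomal RNA pseudogene, at 16764 to 19844 bases from its start. These 10 lay in no RefSeq span.

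On chromosome 2, between 132278940 and 132282920, 25 members were listed in 3981 bases, and 16 of them belonged to pairs, meaning that the same start and end were listed once per strand. The 28S pseudogene RNA28SP (chr2:132279434-132281707) held 20 of them, 12 on the plus strand and 8 on the minus strand, and they covered 17.2% of its 2274 bases. The list had assigned all 25 to ENSG00000230803.1, at 11457 to 15437 bases. On chromosome 22, between 11614560 and 11631080, 24 members were listed and 19 were on the minus strand. The 18S pseudogene RNA18SP (chr22:11629549-11630707) held 12 of these, covering 23.8% of its 1159 bases, and the neighbouring pseudogene LOC100996699 held 5, all on the minus strand. The list had assigned them to ZNF73P, a zinc finger pseudogene, at 139856 to 156336 bases. The strands were therefore mixed at both 28S copies, and mostly minus at the 18S copy.

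Together the 3 pseudogenes held 53 members, or 7.43% of the set, and outside the 3 loci no member lay in a 45S family gene. Among the 1490 intergenic sites at up to 10000 bases from a start, with the same regions left out, 114 sites (7.65%) lay in 6 genes of the family. For scale, listed sites covered 98.3% of the mature 28S gene RNA28SN1 and 99.0% of the mature 18S gene RNA18SN1 on chromosome 21, so the pseudogenes were covered in patches and the mature genes almost throughout.

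**Figure D1:**
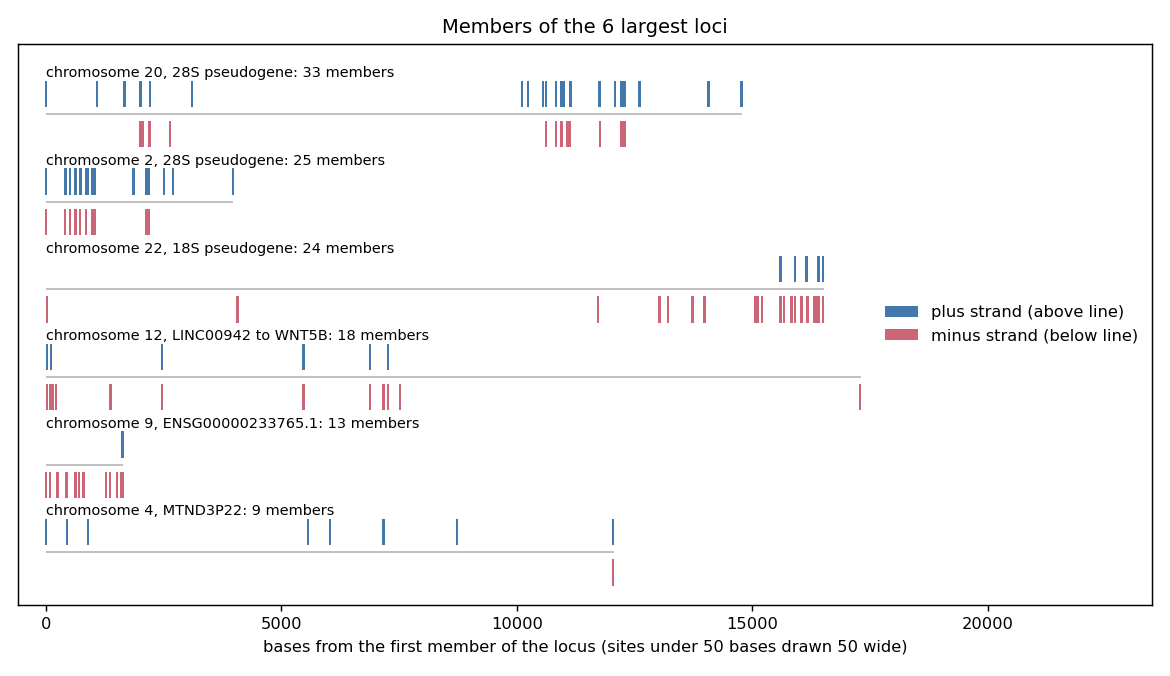
Each row is one of the 6 loci with most members, with distance from its first member in bases on the x axis, plus-strand sites above the line in blue and minus-strand sites below it in red. The chromosome 20 locus holds 33 members in separated groups, the chromosome 9 locus has 12 of its 13 members on the minus strand, and the chromosome 4 locus has 8 of its 9 on the plus strand.

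The other large loci held no ribosomal RNA gene of the table. On chromosome 12, 18 members lay between 1531900 and 1549200, in the space between LINC00942, a long noncoding RNA gene, and WNT5B, which encodes a secreted Wnt ligand. The list gave 11 of them to LINC00942 and 7 to WNT5B, at 25477 to 36855 bases, and 6 fell in the RefSeq span of the noncoding gene LOC107984507. On chromosome 9, 13 members lay within 1641 bases (66269440 to 66271080), in no RefSeq span, and 12 of them were on the minus strand. They covered 21.5% of that stretch, which the list assigned to ENSG00000233765.1.

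On chromosome 4, 9 members between 49279040 and 49291100 were assigned to MTND3P22, a copy of a mitochondrial gene for a subunit of NADH dehydrogenase, whose start was 32439 to 44499 bases away. The first of them lay in the pseudogene LOC124900865, and 8 were on the plus strand. Their first positions were 440 bases apart, at 0, 440 and 880 bases from the start of the locus. MTND3P22 had 12 members in all, so 3 more lay beyond this locus.

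Further down the order, members were packed into short stretches. On chromosome 7, 8 members covered 55.6% of 261 bases (69062420 to 69062680), at 35987 to 36247 bases from LOC105375342. On chromosome 5, 6 members covered 79.0% of 181 bases (71850920 to 71851100) at 94639 to 94799 bases from LOC100422013, a catenin beta 1 pseudogene. Another 6 on chromosome 5 (123761300 to 123761480) were 3 positions, each listed on both strands, assigned to the keratin pseudogene KRT18P16, which had 10 members in all. The locus on chromosome 2 from 130061460 to 130071380, near FAR2P1, was instead spread, with 7 members over 9921 bases and 1.27% covered. Of the 35 loci with 3 or more members, 20 spanned under 500 bases, and these held 79 members.

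Most loci were single positions. Of the 426 loci, 307 (72.1%) had 1 member and 84 had 2, of which 43 were 1 position listed on both strands. Counting a pair as 1 position, 350 loci (82.2%, exact binomial interval 78.2 to 85.7) consisted of 1 position. The 5 loci of 10 or more members held 113 members, 15.8% of the set. No locus of members contained a listed site of another class (0 of 426). With 350 loci of 1 position there was little room for such a site, so this count is given as a description only. All intervals are 95% and cover counting error only.

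Part of the members lay in a gene of RefSeq, although the list called them intergenic. Of the 713 members, 186 (26.1%, 22.9 to 29.5) overlapped at least 1 base of a RefSeq gene span on either strand, in 93 genes. The other 527 lay in none. The median distance of these to the nearest span was 16252 bases, 349 members were over 10000 bases from any span, and 43 were over 100000 bases away. The list gives 4 members at the same positions, strands and distances on X and on Y, where the chromosomes share a pseudoautosomal region, so the 713 members include both copies. Their distance to the nearest RefSeq span was 20055 to 43039 bases on X and 892836 to 971327 on Y. Without the Y copies there were 709 members in 424 loci, of which 345 members were over 10000 and 39 over 100000 bases from any span. The RefSeq start windows used here give starts for protein-coding and long noncoding genes on the chromosomes of 689 members. Of these, 53 (7.69%) were within 10000 bases of such a start. Where RefSeq gave a strand for the overlapped gene, 25 of 55 combinations of member and gene had the member on the gene's strand.

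tRNA genes were the short genes most often found under members. Their products carry amino acids to the ribosome. In all, 23 members overlapped 20 nuclear tRNA genes, out of 443 in the table and 119 with any listed site. No listed site carried a tRNA symbol as its assigned gene (0 sites), so the list's annotation gave each of these to another gene. That annotation does name genes of other small RNA families, so the rank of tRNA genes among short genes depends on it in part. Of the 20 genes, 10 lay on chromosome 6, and the share of the 443 genes on that chromosome is not given here for comparison. By the amino acid in the gene name, leucine and glutamine had 5 genes each, proline 3 and lysine 2, while aspartate, glutamate, histidine, valine and tyrosine had 1 each, over 15 anticodons in all. In RefSeq leucine has 32 nuclear tRNA genes and glutamine 19, which are unequal numbers to draw from.

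Of these genes, 17 had 1 member and 3 had 2. The 3 were the lysine gene TRK-CTT2-4 (chr6:26556546-26556618), the leucine gene TRL-AAG1-3 (chr5:181174044-181174125) and the leucine gene TRL-CAA4-1 (chr1:248873855-248873960), and in each the members were 1 position listed on both strands. The aspartate gene TRD-GTC3-1 (chr6:27583457-27583528) was touched at its edge, over 4 bases. Coverage of a tRNA gene ran from 5.56% to 73.6% with a median of 27.2%, so a member took in part of the gene. Near intergenic sites overlapped 40 tRNA genes with 54 sites, 3.62% of that class against 3.23% of the members. The tRNA genes come in families of near-identical copies, and a member does not show which copy an RNA came from.

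Other small RNA genes were few under members. RNU6-1139P, a copy of the U6 spliceosomal RNA, had 2 members at 1 position on both strands (chr1:242024000-242024020). SNORD3P3 and SNORD3P4, copies of the U3 RNA that guides early cleavage of the ribosomal RNA precursor, had 2 members each, and the noncoding RNA gene SNAR-A4 on chromosome 19 had 1. SNORD3P4 was touched only at its edge, over 4 of its 71 bases, while 31.5% of SNORD3P3 was covered. The families of 5S rRNA, 7SK, 7SL, U1, U2, U4, U5, vault RNA, microRNA, ribosomal protein pseudogenes and translation factor pseudogenes had 0 members each. Those families do have listed sites, for example 209 in 7SK genes and 162 in 5S genes. None of those in 7SK and 5S genes was classed as intergenic or intron. The list assigns sites to named 5S, 7SK and 7SL copies, so a site over such a copy can take that gene's short distance. The rule would then leave it out, so the counts of 0 do not show that members avoid these families. Translation factor pseudogenes did have 7 near intergenic sites.

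Nuclear copies of mitochondrial genes held 5 members, all in MTRNR2L9 (chr6:61574103-61574550), a copy related to humanin and the mitochondrial 16S ribosomal RNA. They covered 27.2% of its 448 bases, with 3 on the plus strand and 2 on the minus strand. MTRNR2L9 lies in the RefSeq span of KHDRBS2, which encodes a splicing regulator, and KHDRBS2 had 6 members in all, 5 of them those of MTRNR2L9. Near intergenic sites held 73 in 9 genes of this family (4.90% of the class, against 0.701% of the members), and these shares are given without a test.

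Long noncoding RNA genes held 56 members in 33 genes, and these overlap in part with the ribosomal RNA pseudogenes. That was 7.85% of the members, against 4.56% of near intergenic sites and 13.9% of the whole list, and these shares were not tested. LOC105379481, whose start was shown above, had 7, and 5 of these also lay in the 28S pseudogene LOC110467526. LOC107984507 had 6, LOC105379516 on chromosome 22 had 4 and LOC107985200 on chromosome 1 had 3. Protein-coding spans held 32 members in 17 genes, which was 4.49% of the members against 8.86% of near intergenic sites and 55.8% of the whole list. GSE1, a chromatin-associated protein gene on chromosome 16, had 7 members, and PGBD2, which derives from a transposase, had 3, which were the members at the tRNA genes TRL-CAA4-1 and TRE-CTC2-1. PPARGC1A, the coactivator of mitochondrial biogenesis, had 2. The spans of GSE1, PGBD2 and PPARGC1A are 506689, 57341 and 680885 bases long, and the table gives no exons, so whether a member was exonic in RefSeq is not known. Other pseudogenes held 24 members in 15 genes, with 3 each in the overlapping GUSBP15 and LOC441081, and 2 in LOC124901557. In the near class other pseudogenes held 256 sites, 17.2% against 3.37% of the members.

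**Figure D2:**
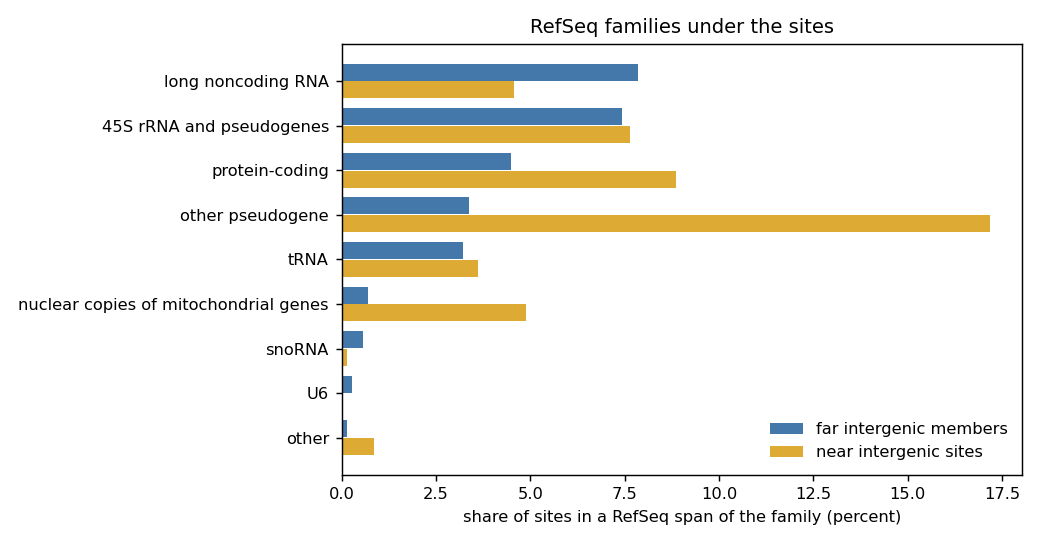
Bars give the share of sites, in percent, that overlap a RefSeq gene of each family, for the 713 members in blue and the 1490 near intergenic sites in yellow. The ribosomal RNA family takes 7.43% and 7.65%, long noncoding RNA genes take 7.85% and 4.56%, and other pseudogenes take 3.37% and 17.2%.

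The members were assigned to 412 genes, 290 of them with 1 member, and 317 members (44.5%) had no gene symbol, whereas 76.2% of near intergenic sites had one. Besides the genes above, ENSG00000286406.2 on chromosome 22 was assigned 7 members. By name, 16 members in 5 genes were assigned to copies of mitochondrial genes, 15 to U6 copies, 14 to 5.8S pseudogenes, 11 to 5S copies, 10 to ribosomal protein pseudogenes and 9 to 7SL copies. None of these names marks an overlap, since the rule put every assigned start over 10000 bases away.

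The distances in the list are those that chose the members and are given as a description. The median was 25822 bases, the quartiles were 15825 and 54347, and the farthest was 818607. The members just inside the limit lay at 10060, 10068 and 10123 bases, and the intergenic sites just outside it at 9965, 9976 and 9985. Over 50000 bases lay 187 members and over 200000 bases 27. Of the 713, 399 (56.0%) lay upstream of the assigned start and 314 downstream. Among those downstream, 63 were within 10000 bases past the end of the assigned transcript. Of the 63, 27 were on that gene's strand (42.9%, 30.5 to 56.0). The interval takes in equal shares on each strand, and these are sites rather than loci, so no strand preference can be read from them.

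The 5 farthest members stood apart from both annotations in part. On chromosome 5, members at 49610100, 49623380 and 49625440 were assigned to EMB, which encodes the adhesion protein embigin, at 818607, 805347 and 803287 bases. They were also 770732 to 786072 bases from the nearest RefSeq span. The next, on chromosome 18 at 40802640, lay 538679 bases from its assigned start and 1467600 bases from any other listed site. The last, on chromosome 22 at 12177060, was 293478 bases from its start but 9886 bases from a RefSeq span.

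**Figure D3:**
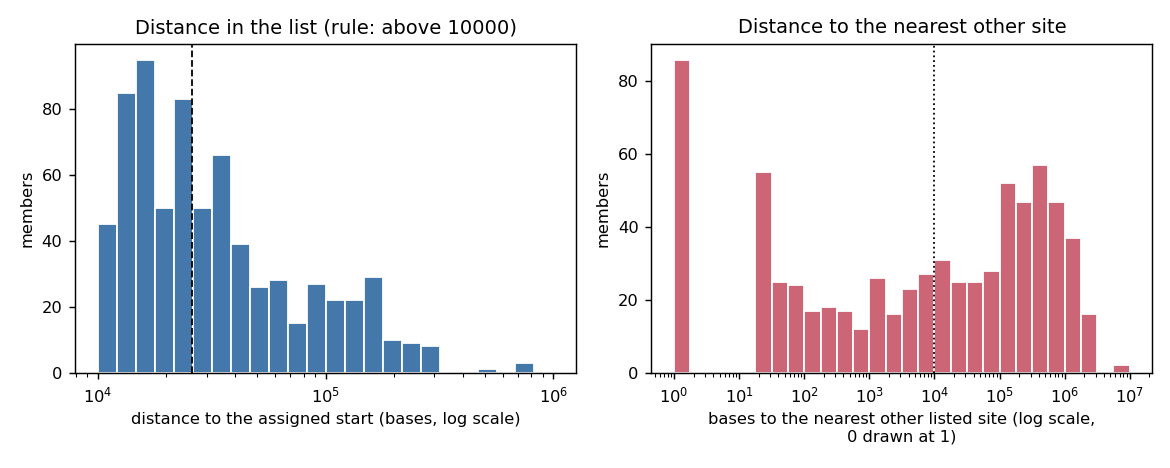
The left panel counts members by distance to the assigned start in bases on a log scale, with the median of 25822 dashed. The right panel counts them by distance to the nearest other listed site on a log scale, with a dotted line at 10000 bases, and shows one group of members that touch or nearly touch another site and a second group that lies over 100000 bases away.

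Members were more isolated than the sites they were set against. The class was compared with near intergenic sites and with the 4294 intron sites outside the left-out regions. Loci here were sites less than 1000 bases apart, since sites so close may not be independent. Each locus was represented by 1 site, the one with the lowest start, so a share over loci is a share of such sites. That gave 472 loci of members, 458 near intergenic and 2211 intron. The test was the two-sided Fisher exact test, with Benjamini-Hochberg adjustment over the 7 comparisons made. No other listed site lay within 10000 bases of the site in 69.3% of member loci (64.9 to 73.4; Fisher exact test), 48.0% of near intergenic loci (43.4 to 52.7; adjusted p = 1.92e-10) and 46.5% of intron loci (44.4 to 48.6; adjusted p = 9.44e-19). Distance from transcripts entered the rule, and sites crowd in transcripts, so this measure is tied to the rule in part. Over all sites the shares were 51.5%, 17.6% and 28.7%. A gap over 100000 bases to the next listed site was found for 258 members, and one under 100 bases for 190.

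Members were less often listed on both strands. Of the 713, 180 formed 90 pairs with identical coordinates, which is 25.2% (22.1 to 28.6), against 33.6% of near intergenic and 38.4% of intron sites. Over loci, the lowest-start site was in a pair in 13.3% for members (10.4 to 16.8; Fisher exact test), 20.96% for near intergenic (17.3 to 24.98; adjusted p = 0.00317) and 24.2% for introns (22.4 to 26.04; adjusted p = 1.74e-07). A locus whose first site was unpaired counted as unpaired even where later sites formed pairs, so these are not shares of loci listed on both strands. Outside the 10 largest loci 21.99% of 564 members were paired. A pair has no single strand, and the sources used here do not say how the caller treated strand.

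Members were also narrow. Sites have widths in steps of 20 bases from a smallest width of 21, and 596 members (83.6%) had that smallest width, 88 had 41 and 22 had 61. Over loci, 9.11% of members were wider than 21 bases (6.67 to 12.1; Fisher exact test), against 14.2% of near intergenic loci (11.1 to 17.7; adjusted p = 0.0214) and 8.77% of intron loci (7.63 to 10.0; adjusted p = 0.789). The difference from near sites depended on the setting. Among plus-strand sites the adjusted p of the Fisher exact test was 0.142, and of the members beyond 50000 bases 15.4% of loci were wider (adjusted p = 0.773 by the same exact test). Against introns, members beyond 50000 bases differed by 6.67 percentage points (Fisher exact test, adjusted p = 0.0315). Over all sites the shares were 16.4%, 27.2% and 14.1%.

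Each of the widest members touched another listed site. The widest, of 121 bases, was on chromosome 9 (76571840 to 76571960, minus strand), 22189 bases from the start of ENSG00000219149.4 and in no RefSeq span. Widths of 101 bases were found on chromosome 6 in MTRNR2L9 (61574140 to 61574240), on chromosome 7 (45252000 to 45252100) and on chromosome 22 just past RNA18SP (11630900 to 11631000). These 4 were on the minus strand. The next width, 81 bases, was shared by 3 members, of which the first in genome order was on chromosome 2 (78701580 to 78701660). The widest site of the whole list was 2641 bases.

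A RefSeq gene lay under members less often than under near intergenic sites. Over loci 19.9% of members (16.4 to 23.8) and 39.1% of near sites (34.6 to 43.7) overlapped a span (Fisher exact test, adjusted p = 2.84e-10). The list's annotation and RefSeq share many genes, so this difference is not independent of the rule. Over all sites in place of loci, on either strand, the shares were 26.1% and 37.0%. Counting over loci only a gene of known strand on the strand of the site, they were 3.39% and 6.55% (Fisher exact test, adjusted p = 0.0390).

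**Figure D4:**
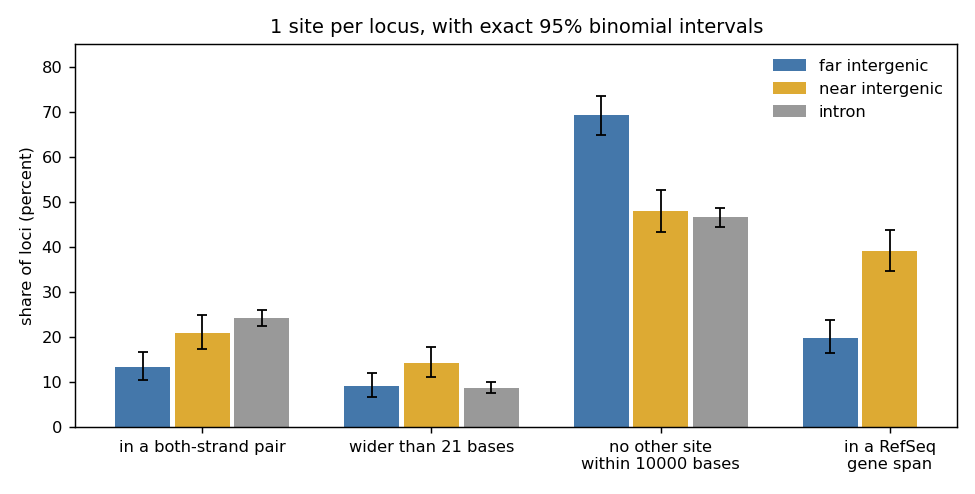
Bars give the percent of loci whose site of lowest start had each property, with exact 95% binomial intervals. They cover 472 loci of members, 458 near intergenic and 2211 intron loci. Isolation separates the members from both other classes (69.3% against 48.0% and 46.5%), while the widths of members and intron sites overlap (9.11% and 8.77%).

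The minus strand carried more of the members than the plus strand. Of the 713, 407 (57.1%, 53.4 to 60.8) were on the minus strand. Without pairs, which count once on each strand, it was 317 of 533 (59.5%, 55.2 to 63.7). Taking only the unpaired site of lowest start in each locus, it was 263 of 421 (62.5%, 57.7 to 67.1). A locus with unpaired sites on both strands was thus counted by its first site alone. Among isolated unpaired members the minus strand held 182 of 287 (63.4%, 57.6 to 69.0). Among unpaired members with another site within 10000 bases it held 135 of 246 (54.9%, 48.4 to 61.2). Counted by the unpaired site of lowest start, minus-strand loci outnumbered plus-strand loci on 21 of 24 chromosomes, were fewer on 2 and equal in number on 1. The margin varied, with 19 against 5 on chromosome 9 but 18 against 17 on chromosome 4. On chromosome Y it was 3 against 1, including the minus-strand copies of X sites at positions 1857000 and 1859440.

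Set side by side, the share with 1 unpaired site per locus was 52.3% (47.2 to 57.4) in near intergenic sites and 57.1% (54.7 to 59.4) in introns. Over all unpaired near intergenic sites it was 46.7% (43.5 to 49.8), so the share depended on how sites were counted. In the whole list, 52.8% of unpaired sites were on the minus strand. These differences were noticed in the values and were not tested. Strand here is the strand of the genome sequence, which has no meaning shared between chromosomes.

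**Figure D5:**
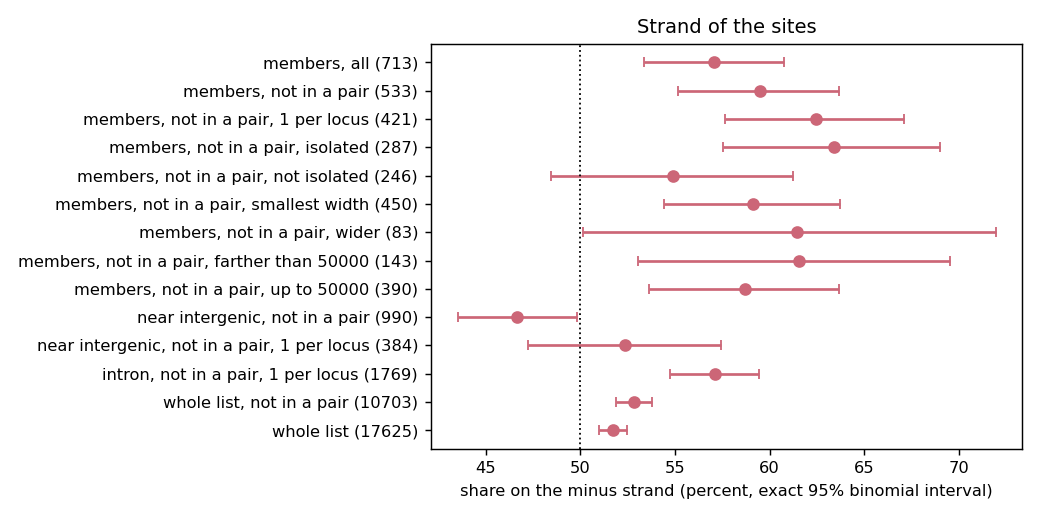
Points give the percent of sites on the minus strand with exact 95% binomial intervals, for subsets of members and for other classes, with the number of sites in brackets and a dotted line at 50%. With 1 unpaired site per locus, that of lowest start, members stand at 62.5%, introns at 57.1% and near intergenic sites at 52.3%.

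Members were spread over all 24 chromosomes of the nuclear genome. Chromosome 2 had 68 in 28 loci, chromosome 20 had 59 in 19 and chromosome 1 had 58 in 40. The largest locus alone gave 33 of the members of chromosome 20 and the second largest 25 of those of chromosome 2. Without the 10 largest loci chromosome 1 had most, with 58, and chromosome 2 had 36. On chromosome 22, 41 members in 11 loci made up 12.1% of its listed sites, and on chromosome 19, the chromosome with most listed sites, 13 members made up 0.465%.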

How the data were processed

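The authors deposited 1 list of sites with positions, widths and signed distances in bases, per the file headers, and no measured level. Build hg38 and the tools STAR 2.7.10a and fastp 0.23.2 come from the submitters' processing notes, without their roles. Not given in the sources used here were the site caller, its threshold, the use of IgG and the handling of reads with several matches. Samples were grouped by their titles, and the labels do not say if replicate libraries came from separate cultures. Sites were taken as 1-based with both ends included. The list holds 0 unused columns per library.

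Members were compared with near intergenic and intron sites over loci by the two-sided Fisher exact test. Positions were matched to 59716 gene spans and 35116 start windows of RefSeq GRCh38.p14, whose table gives no scaffold, and families were assigned by symbol, by a LOC symbol's synonym, or by gene type. The planned test of anti-P5CS against IgG could not be run. Base composition over members was not analysed here, since no genome sequence was used. Named were the 10 largest loci, the 5 widest and 5 farthest members, the 10 assigned genes with most members, and up to 4 genes per family. Members, lists and tests were chosen with earlier results of these data known. The share test over loci was checked on simulated sites, and the isolation and locus functions on a small made-up set of sites. The overlap function was not checked in this way. Python 3.11.15, pandas 2.3.3, numpy 2.4.6, scipy 1.17.1 and matplotlib 3.10.9 were used.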

Additional observations from a re-analysis of the deposited data

How the results depend on the processing

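The isolation, both-strand and RefSeq overlap comparisons kept their direction and their side of the 0.05 threshold under each alternative run. Isolation and RefSeq overlap are tied to the rule in part, so their stability is not independent evidence of a difference. The differences in isolation ran from 20.2 to 33.9 percentage points against near sites and from 16.2 to 25.8 against introns. Those in pairs ran from -9.25 to -7.42 and from -13.1 to -8.91, and in RefSeq overlap from -23.6 to -3.16. The wider-site difference from near sites turned to 1.26 with members beyond 50000 bases (Fisher exact test, adjusted p = 0.773) and was -5.04 with plus-strand sites (adjusted p = 0.142). That from introns rose to 6.67 with members beyond 50000 bases. The cause was not tested. That limit left 187 members in 112 loci. The minus-strand share ran from 54.2% to 59.5%. Leaving out the 3 largest loci, or the chromosome Y copies of X sites, was added after the data were seen and changed no call. No paired analysis was possible because the list has no value per library, and leaving out replicates was not run for the same reason. Depth is unknown.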
